A study of Mus musculus with 3 samples.

Results

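The respiratory chain genes described here are 110 of the 51912 genes in the deposited feature lists. They were chosen by symbol alone: 13 genes that start with mt-Nd, mt-Co, mt-Atp or mt-Cytb and are carried by the mitochondrial genome, and 97 nuclear genes that start with Ndufa, Ndufb, Ndufc, Ndufs, Ndufv, Sdha, Sdhb, Sdhc, Sdhd, Uqcr, Cox4i, Cox5, Cox6, Cox7, Cox8 or Atp5. Another 7 symbols that contain -ps were left out. Complexes were assigned by symbol alone, so Ndufa4, whose product has been placed in complex IV, is counted under complex I. By symbol the nuclear members divide into 38 complex I genes, 4 complex II genes, 8 complex III genes, 18 complex IV genes and 17 ATP synthase genes, together called nuclear subunits below although a few (Atp5s, Atp5sl and Cox7a2l) are not classical subunits, plus 12 Ndufaf and Sdhaf genes. Against their label, these 12 are assembly factors, proteins that help build complexes I and II and are not part of the finished chain, and they are therefore given apart.

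The study deleted Arid3a, a DNA-binding transcription factor, from the mouse intestinal epithelium and read single cells with 3′ droplet RNA-seq that counts unique molecular identifiers (UMIs). The 2 cKO libraries carry VillinCreERT2 with Arid3a fl/fl, and the label of the 1 WT library gives VillinCreERT2 alone. All were given tamoxifen at 8 to 10 weeks of age and taken 1 month after the first dose, so Cre and tamoxifen are shared by both groups, and the Villin promoter limits the deletion to epithelium. By the paper's methods the single cells came from isolated crypts, prepared after the villi had been scraped off. The enterocyte-like cells below are those found in this preparation. Cells were sorted as live, Epcam+, CD45- and CD31-. With 1 WT library, genotype and any other difference between the WT and the cKO libraries cannot be told apart, and nothing in the sources used here says whether a library holds 1 animal or several.

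The respiratory chain moves electrons from NADH through complex I, or from succinate through complex II, to ubiquinone, on through complex III and cytochrome c to complex IV, and ends on oxygen. Complexes I, III and IV pump protons as they do so, and the ATP synthase uses the return of these protons to make ATP. The mitochondrial genome encodes core membrane subunits of all but complex II, while the nucleus encodes the rest, so that each of the other complexes is built from 2 genomes. In the intestine, absorptive enterocytes are rich in mitochondria and spend ATP on ion and nutrient transport, whereas cycling crypt cells also rely on glycolysis.

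The files hold 6845, 6893 and 11816 cell barcodes for cKO 1, cKO 2 and WT. Cells with at least 1000 genes and at most 15% of UMIs from mt- genes were kept, which left 2134, 1550 and 1910 cells (5594 of 25554 barcodes, 21.9%) with medians of 31391.5, 35764 and 29895 UMIs. The limit on mt- UMIs is itself a limit on the mitochondrial members, and it removed more of the WT library: 66.4%, 75.6% and 79.2% of barcodes lay above it. The kept cells of cKO 1 and WT share 2 barcodes, those of cKO 2 and WT share 1, and the 2 cKO libraries share 0. Arid3a gave 0.592 and 0.894 CPM (the UMI count of a gene scaled to a total of 1000000 UMIs) in cKO 1 and cKO 2 and 2.57 CPM in WT, on 42, 52 and 161 UMIs. Cells were grouped by clustering without the members, the other mt- genes and the pathway genes named below, and clusters were named from marker lists. Intestinal stem cell (ISC)-like, transit-amplifying (TA)-like, enterocyte-like, goblet-like, Paneth-like, enteroendocrine-like and tuft-like cells were named, each found in all 3 libraries. In every library all markers of the enterocyte, goblet, Paneth, enteroendocrine and tuft lists were highest in their own class, while 8 to 9 of the 10 ISC markers and 9 of the 12 TA markers were. The same lists had named the clusters, so these counts are no independent check of the names. DNA replication genes such as Mcm3 lead the ISC-like cluster beside Lgr5 and Olfm4. At a resolution of 0.8 the ISC-like name went to a cluster of 384 cells led by Lgr5 and Olfm4 and to another of 483 cells. That second cluster was led by Ung, Cdc6 and Uhrf1. It had 0 ISC markers among its 50 leading genes, though 7 of the 10 were raised at least 1.5-fold. The ISC-like class, the reference of the class comparisons below, is thus mixed. Immune and stromal or endothelial markers summed to at most 0.578 CPM in any library's enterocyte-like cells or in its ISC- and TA-like cells combined.

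The sequences of mt-Nd3 and of a nuclear copy are shown first because counts of both genes differed between the genotypes, as given below. The mitochondrial gene mt-Nd3 encodes a core subunit of complex I at chrM:9459-9806 on the plus strand of GRCm38 (GENCODE M21). The nuclear gene Gm28438 at chr1:24612775-24613119 on the minus strand is an unprocessed copy of it. Over 345 aligned bases, 344 are identical, and the difference is T3C, counted from 1 at the 5′ end of each transcript with the mt-Nd3 base first. The first 120 bases of each transcript read as follows, with the differing base in capitals.
mt-Nd3: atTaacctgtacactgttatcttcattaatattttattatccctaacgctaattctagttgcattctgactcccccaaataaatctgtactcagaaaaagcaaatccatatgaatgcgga
Gm28438: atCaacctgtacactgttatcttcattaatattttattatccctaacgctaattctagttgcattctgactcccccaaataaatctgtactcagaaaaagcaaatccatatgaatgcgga

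Promoters are shown for nuclear members because most of them moved together between cell classes, as given below. RefSeq promoter windows on GRCm38.p6, running from 250 bases before to 50 bases after a gene's start, were at hand for 78 of the 97 nuclear members. The motif of the nuclear respiratory factor NRF1 was found on either strand in 20 of these 78 windows (25.6%). It was found in 4.78% of all 27025 promoter windows and in 10.8% of the 9591 windows of genes tested between classes. CCGGAAG, the core letters of ETS factors such as GABPA, was in 25.6% of the members' windows, in 9.12% of all windows and in 18.6% of the windows of genes tested. ATGGCGGC, bound by YY1, was in 10.3%, 2.38% and 5.21%. These 3 motifs were searched on both strands and do not contain one another. Below, 100 bases that end 50 bases before the start are given on the gene's strand for 4 subunits that hold the NRF1 motif within them (in capitals), followed by Cox7a1 and Cox7a2, paralogs whose levels are set side by side further on and whose windows hold no match to the 3 motifs. The 4 were picked from the subunits that hold it for a high log2 fold change in enterocyte-like against ISC-like cells. Their rise there was thus fixed by the choice.
Ndufs5 (chr4:123718237-123718336, minus): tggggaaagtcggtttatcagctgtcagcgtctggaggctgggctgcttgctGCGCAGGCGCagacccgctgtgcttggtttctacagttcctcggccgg
Sdhd (chr9:50603900-50603999, minus): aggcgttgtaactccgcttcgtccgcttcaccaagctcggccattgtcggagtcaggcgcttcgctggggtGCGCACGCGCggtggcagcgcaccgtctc
Ndufa11 (chr17:56717612-56717711, plus): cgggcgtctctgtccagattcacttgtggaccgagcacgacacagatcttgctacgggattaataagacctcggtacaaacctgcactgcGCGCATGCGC
Cox6a1 (chr5:115349009-115349108, minus): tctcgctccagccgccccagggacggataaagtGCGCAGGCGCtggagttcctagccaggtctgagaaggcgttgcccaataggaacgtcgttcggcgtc
Cox7a1 (chr7:30184021-30184120, plus): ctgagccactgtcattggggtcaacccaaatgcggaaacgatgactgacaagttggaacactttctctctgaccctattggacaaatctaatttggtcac
Cox7a2 (chr9:79759904-79760003, minus): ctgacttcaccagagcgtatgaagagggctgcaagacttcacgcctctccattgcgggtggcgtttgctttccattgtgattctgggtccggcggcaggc

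Among the 7 named classes, enterocyte-like cells carried the highest level of respiratory chain transcripts in each of the 3 libraries. To set classes side by side, UMIs were summed per library and class and expressed as CPM on library sizes scaled by the trimmed mean of M values (TMM), called scaled CPM here. The summed level of the 85 nuclear subunits was 40597, 44848 and 42448 scaled CPM in ISC-like cells of cKO 1, cKO 2 and WT and 83752, 90932 and 86142 in enterocyte-like cells, which is 2.06, 2.03 and 2.03 times the level in ISC-like cells. TA-like cells had 41872, 48921 and 43475 scaled CPM, which is 1.03, 1.09 and 1.02 times the ISC-like level of the same library, although the ranges of the 2 classes overlap. Goblet-like cells followed with 30624, 35361 and 36811 scaled CPM, tuft-like cells with 29700, 35355 and 27066 and Paneth-like cells with 24468, 28246 and 28509, the tuft-like range overlapping each of the other two, which did not overlap. Enteroendocrine-like cells had 18825, 20872 and 18567 scaled CPM, below every other class in every library.

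The mitochondrial members did not follow the same order of classes. Their summed level rose from 18088, 18157 and 22575 scaled CPM in ISC-like cells to 39242, 43110 and 43774 in enterocyte-like cells. In Paneth-like cells it was 16071, 14031 and 27487 scaled CPM, the WT library being well above both cKO libraries, and in enteroendocrine-like cells 10884, 13736 and 12070. Tuft-like cells had 23351, 21684 and 23487 scaled CPM, which is 1.29, 1.19 and 1.04 times the ISC-like level of the same library, although the ranges overlap. The 12 assembly factors were nearly level from ISC-like (472, 507 and 471 scaled CPM) to enterocyte-like cells (459, 456 and 421). The ISC-like levels were higher in every library.

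**Figure D1:**
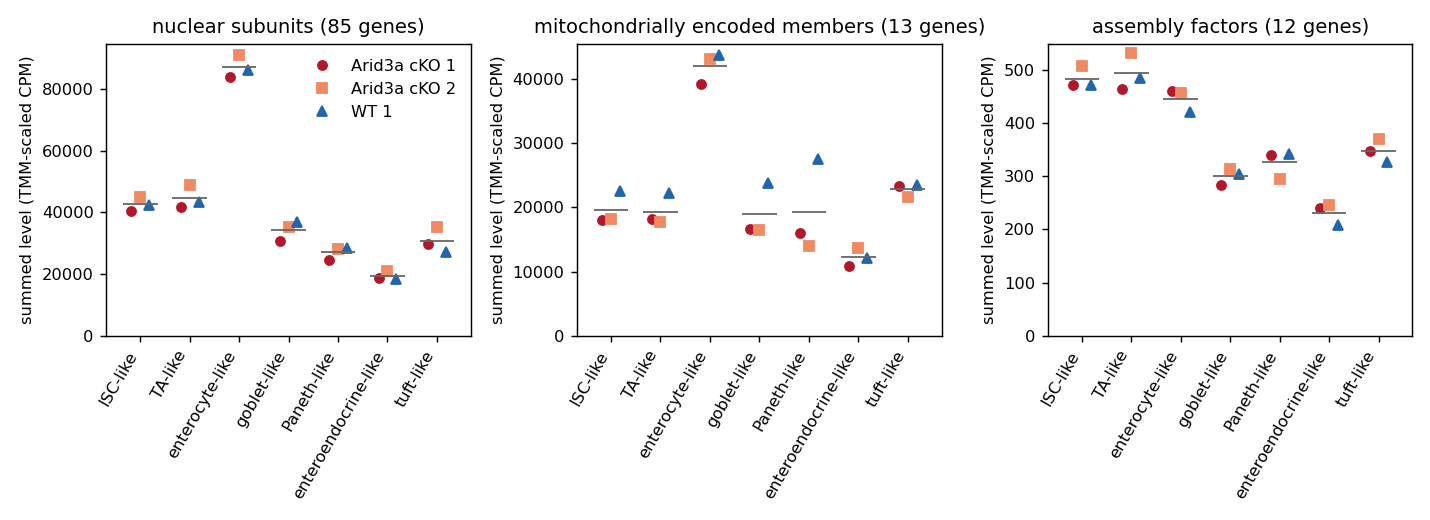
Summed level of 85 nuclear subunits, 13 mitochondrially encoded members and 12 assembly factors (y axes, TMM-scaled CPM, from 0) in 7 cell classes (x axes), with 1 point for each library and a line at the mean of the 3 libraries. Of these classes, enterocyte-like cells stand highest for the subunits and the mitochondrial members, with means of 86942 and 42042 scaled CPM, and the assembly factors do not follow.

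Each class was then compared with ISC-like cells gene by gene, by edgeR's quasi-likelihood test on the summed UMIs with library as a term and Benjamini-Hochberg adjustment over all 13159 genes tested. A gene was called at an adjusted p under 0.05. Of the 110 members 104 were tested. Cox7b2, Cox8b and Cox8c had 0 UMIs in the kept cells of every library, and Cox4i2, Ndufa4l2 and Cox6a2 (at most 4, 9 and 67 UMIs in any library) were too low. These are paralogs known from other settings: heart and skeletal muscle for Cox6a2 and Cox8b, testis for Cox7b2 and Cox8c, and hypoxia for Cox4i2 and Ndufa4l2.

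In enterocyte-like cells 79 of the 91 nuclear members tested were higher than in ISC-like cells and 9 were lower, where 38.2% of all genes tested were higher and 40.1% were lower. The median log2 fold change of the nuclear members was 0.92 beside -0.08 for all genes. All 37 nuclear genes tested with a complex I symbol (Ndufa4 among them) were higher, with log2 fold changes from 0.40 to 1.59, as were all 4 complex II genes (0.99 to 1.45) and all 8 complex III genes (0.57 to 1.57). Of 13 complex IV genes 11 were higher and 1 was lower, and of 17 ATP synthase genes 15 were higher and 1 was lower. The 12 assembly factors went the other way on balance, with 4 higher, 7 lower and a median of -0.40. All 13 mitochondrial members were higher, from 0.74 for mt-Atp8 to 1.40 for mt-Co3, with a median of 1.12.

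These counts depend on the scaling, since enterocyte-like and ISC-like cells differ in much of their transcriptome. With library totals and no scaling, 37 nuclear members were higher and 12 lower, and the nuclear median was 0.37 beside -0.62 for all genes, of which 23.8% were higher and 54.4% lower. The mitochondrial count became 7 higher and 0 lower, with a median of 0.57. Relative to the median of all genes the nuclear members stood 1.00 higher on the log2 scale with TMM and 1.00 higher without it. A change of scaling moves all genes of a contrast by nearly the same amount. This difference was therefore bound to stay, and it is no check on the scaling.

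**Figure D2:**
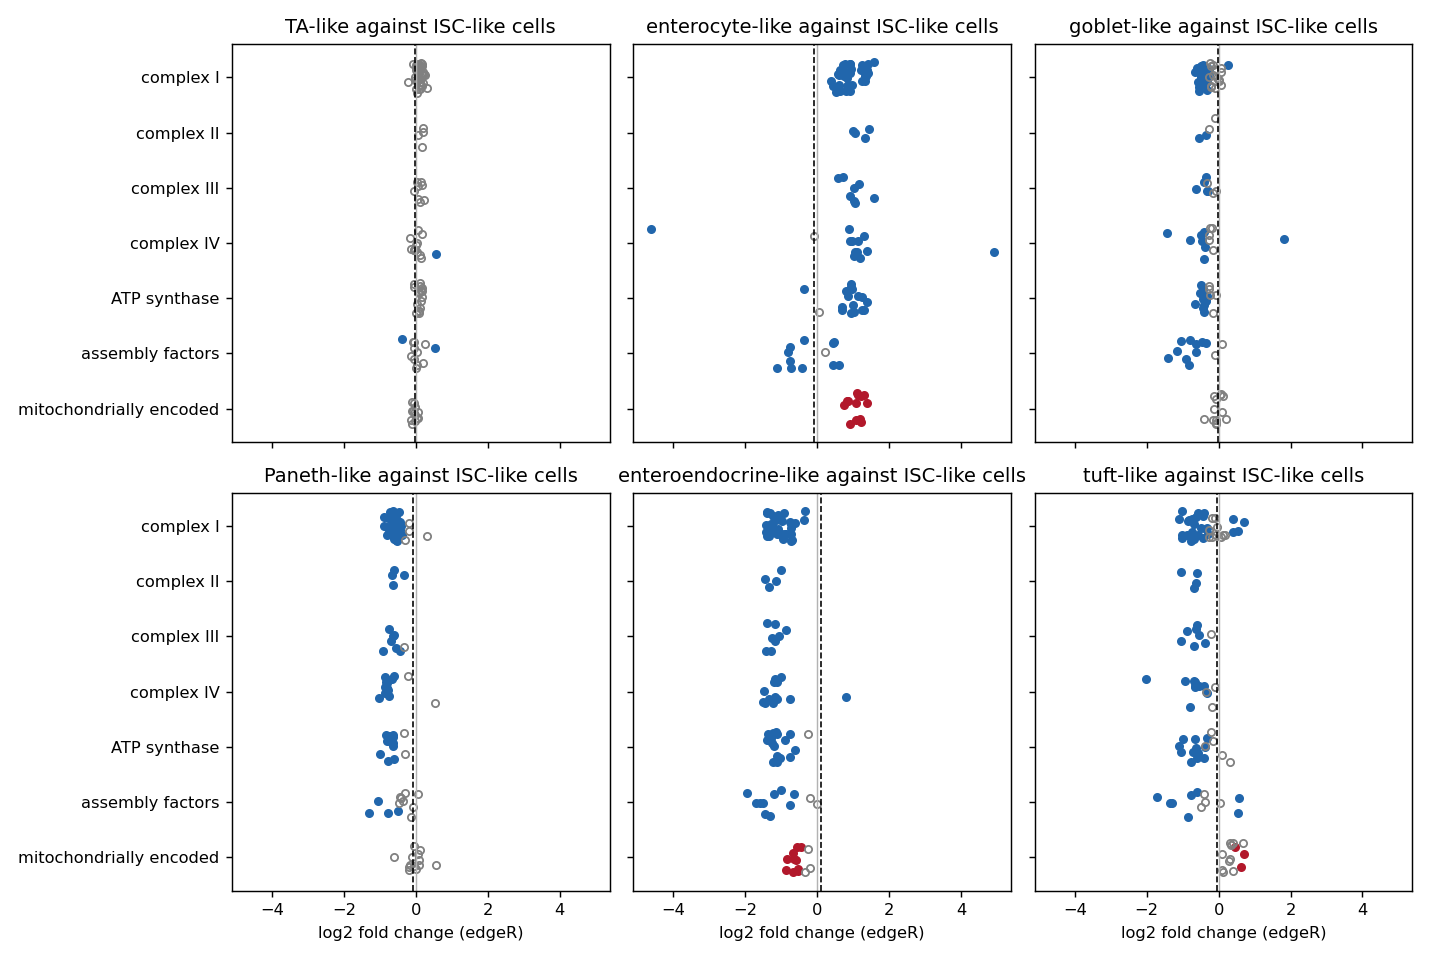
Log2 fold change against ISC-like cells (x axes, edgeR) of each member tested in 6 classes, in rows by complex, with 1 point for each gene, filled where the adjusted p was under 0.05 and open otherwise. The dashed line marks the median of all 13159 genes. In enterocyte-like cells nearly all subunits lie to the right and the assembly factors fall on both sides, and in enteroendocrine-like cells 87 of 91 nuclear members are lower.

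Single members show the size of the enterocyte difference. Ndufa1, a small membrane-arm subunit of complex I, had 251, 290 and 277 scaled CPM in ISC-like cells of cKO 1, cKO 2 and WT and 733, 906 and 826 in enterocyte-like cells. The groups do not overlap, and the log2 fold change was 1.59 ± 0.12 (SE, edgeR adjusted p = 1.27e-11). Uqcrfs1, the Rieske iron-sulfur protein of complex III, went from 255, 294 and 249 scaled CPM to 739, 872 and 759 (log2 fold change 1.57 ± 0.12, edgeR adjusted p = 9.07e-12). Sdhb, the iron-sulfur subunit of complex II, went from 297, 315 and 270 to 792, 839 and 772 scaled CPM (1.45 ± 0.12, edgeR adjusted p = 7.64e-11). The accessory complex I subunits Ndufc1 and Ndufa6 had log2 fold changes of 1.42 and 1.41. Cytochrome b, the core of complex III and the product of mt-Cytb, had 7627, 7752 and 8924 scaled CPM in ISC-like and 16585, 18689 and 17248 in enterocyte-like cells (1.12 ± 0.18, edgeR adjusted p = 4.47e-06).

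Cox7a1, the isoform of complex IV subunit 7a known best from heart and skeletal muscle, showed the largest rise of any member. It had 31.6, 35.3 and 28.004 scaled CPM in ISC-like cells and 834, 1038 and 1008 in enterocyte-like cells, a log2 fold change of 4.91 ± 0.16 (edgeR adjusted p = 2.28e-18). It was also higher in goblet-like cells (95.6, 115 and 128 scaled CPM, log2 fold change 1.82), enteroendocrine-like cells (39.2, 67.5 and 60.1, 0.79) and TA-like cells (42.6, 49.6 and 49.2, 0.57), all called by edgeR. In Paneth-like cells (30.5, 58.1 and 54.7 scaled CPM) and tuft-like cells (21.3, 46.1 and 19.4) it was not called. Its paralog Cox7a2, the isoform found in most tissues, had 807, 887 and 860 scaled CPM in ISC-like and 2128, 2300.0 and 2257 in enterocyte-like cells (log2 fold change 1.39). Cox7a2 was lower in Paneth-like and enteroendocrine-like cells, at -0.65 and -1.02. Cox7a2l, which takes part in joining complexes into supercomplexes and is no isoform of the enzyme, was not called in enterocyte-like cells (-0.088 ± 0.12), and was lower in goblet-, Paneth-, enteroendocrine- and tuft-like cells.

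Cox6b2, the isoform of complex IV subunit 6b known from testis, had the largest fall. It had 9.20, 13.6 and 13.0 scaled CPM in ISC-like cells and 0.442, 0.428 and 0.509 in enterocyte-like cells (log2 fold change -4.63 ± 0.20, edgeR adjusted p = 2.97e-16). TA-like cells held it at 9.99, 10.8 and 11.6 scaled CPM, and it was lower in goblet-, enteroendocrine- and tuft-like cells, at -1.42, -1.34 and -2.03. The general isoform Cox6b1 had 1137, 1326 and 1245 scaled CPM in ISC-like and 2369, 2646 and 2457 in enterocyte-like cells, a log2 fold change of 1.01. Subunits 7a and 6b thus each had 1 isoform whose change was several times that of its partner, upward for Cox7a1 and downward for Cox6b2.

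The 3 genes for the ATP synthase c subunit, whose ring turns as protons pass, also differed from one another. Atp5g3 rose with a log2 fold change of 1.37 ± 0.13 from 651, 672 and 679 scaled CPM to 1708, 1753 and 1726. Atp5g1 rose by 0.70 ± 0.13 on the log2 scale. Atp5g2 fell by 0.37 on the log2 scale, from 33.7, 38.5 and 29.4 to 27.2, 28.2 and 22.7 scaled CPM (SE 0.08, edgeR adjusted p = 2.25e-04). Cox6a1, the general isoform of subunit 6a, Cox8a and Cox4i1 had log2 fold changes of 1.19, 0.88 and 1.06, while their partners Cox6a2, Cox8b and Cox4i2 were not tested for lack of UMIs. Ndufa4 rose by 0.80 ± 0.13 on the log2 scale, and its relative Ndufa4l2 was too low to test.

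**Figure D3:**
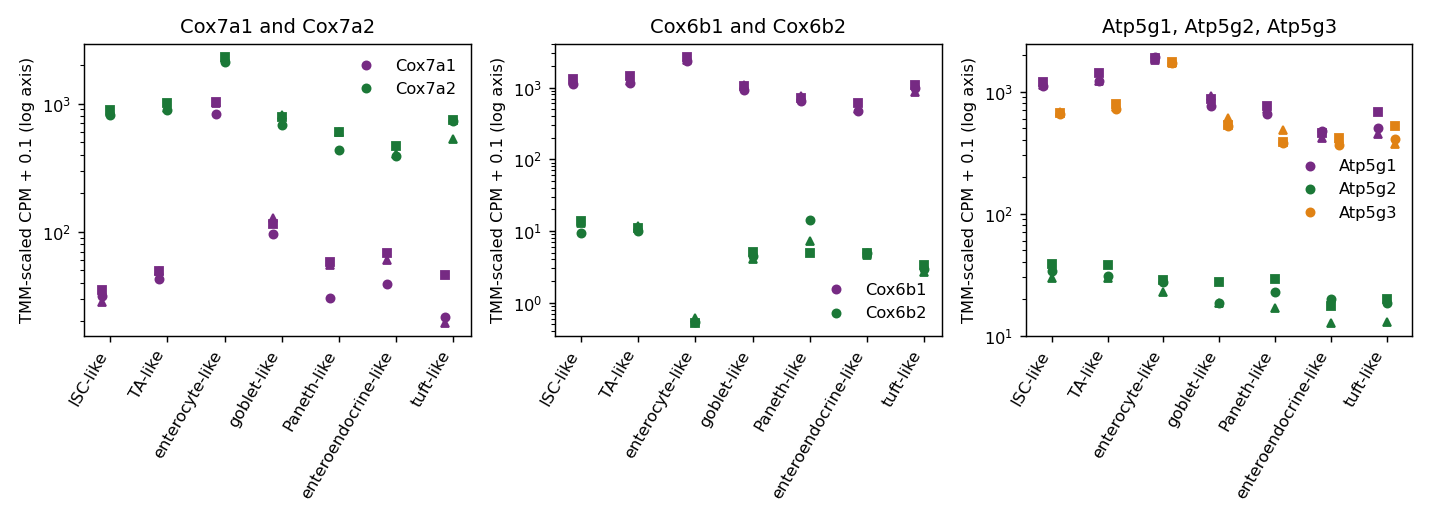
Level (y axes, log scale, TMM-scaled CPM plus 0.1) of paralogous members in 7 cell classes (x axes), with 1 point for each library (circle cKO 1, square cKO 2, triangle WT) and a colour for each gene. Cox7a1 climbs from 28.004 to 35.3 in ISC-like cells to 834 to 1038 in enterocyte-like cells, and Cox6b2 drops from 9.20 to 13.6 to below 1.

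Among the assembly factors, Ndufaf6 had 28.6, 27.8 and 26.7 scaled CPM in ISC-like cells and 14.3, 13.1 and 11.1 in enterocyte-like cells (log2 fold change -1.11 ± 0.11, edgeR adjusted p = 1.37e-09). Sdhaf1, needed to insert iron-sulfur clusters into Sdhb, had 70.8, 72.6 and 52.6 scaled CPM and then 40.7, 37.9 and 33.0 (-0.80 ± 0.10). Ndufaf7, Ndufaf2 and Ndufaf4 had log2 fold changes of -0.76, -0.75 and -0.74, and Ndufaf5 and Ndufaf1 were lower by less. The 4 that rose were Ndufaf3, Ndufaf8, Sdhaf3 and Sdhaf4, with Ndufaf3 at 0.62 ± 0.08, and Sdhaf2 was not called. By edgeR, Ndufaf3 and Cox7a1 were also the 2 members that were higher in TA-like cells, and Sdhaf1 was the 1 that was lower there, of 91 nuclear members tested. DESeq2 called 10 higher and 2 lower, a finer clustering (resolution 0.8) gave 6 higher, and without the WT library 1 was higher. In that comparison 7.43% of all genes tested were higher and 8.06% lower, and 0 of 13 mitochondrial members were called by edgeR (0 at an unadjusted p under 0.05, 0 by DESeq2).

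Nuclear members were mostly lower than in ISC-like cells in goblet-, Paneth-, enteroendocrine- and tuft-like cells. In enteroendocrine-like cells 87 of 91 were lower and 1 (Cox7a1) was higher, where 28.1% of all genes were lower and 34.8% higher. Cox5a, a subunit of complex IV, fell there from 806, 905 and 815 scaled CPM to 291, 347 and 258 (log2 fold change -1.50 ± 0.15, edgeR adjusted p = 4.23e-09). Of the mitochondrial members 10 of 13 were lower, with mt-Cytb at -0.86, while mt-Nd5, mt-Nd4l and mt-Co3 were not called. Ndufaf6, Ndufaf2 and Ndufaf4 had the lowest log2 fold changes of the class, -1.95, -1.69 and -1.59.

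In Paneth-like cells 74 of 91 nuclear members were lower and 0 were higher by edgeR (82 of 91 had an unadjusted p under 0.05, in either direction, and DESeq2 called 2 higher), where 13.3% of all genes were lower and 13.2% higher. Cox6c went from 1341, 1562 and 1465 scaled CPM in ISC-like cells to 606, 697 and 851 (-1.02 ± 0.14, edgeR adjusted p = 4.52e-06). None of the 13 mitochondrial members was called there by edgeR (0 at an unadjusted p under 0.05, 0 by DESeq2), with log2 fold changes from -0.61 to 0.57. Defensin genes lead this class, and the TMM factor of its sums was 0.319, 0.163 and 0.258 in the 3 libraries. Without scaling, all 91 nuclear members were lower with a median of -3.08, beside -2.43 for all genes, so that relative to the median of all genes they stood at -0.65 without scaling and -0.56 with TMM. Here too the difference from that median is no check on the scaling. Only 34, 17 and 29 cells stand behind the Paneth-like sums.

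In goblet-like cells 57 of 91 nuclear members were lower and 2 were higher, where 27.8% of all genes were lower and 28.3% higher. The 2 that were higher were Cox7a1, given above, and the complex I subunit Ndufv3, at 243, 308 and 299 scaled CPM beside 222, 254 and 229 in ISC-like cells (0.27 ± 0.11, edgeR adjusted p = 0.0413). Assembly factors were again among the lowest: 10 of 12 were lower, with Ndufaf4 at -1.40 and Ndufaf6 at -1.16, and 0 of 13 mitochondrial members were called by edgeR (1 at an unadjusted p under 0.05, 0 by DESeq2). The goblet count rested in part on cKO 1, without which 27 nuclear members were lower.

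In tuft-like cells 62 of 91 nuclear members were lower and 6 were higher, where 19.8% of all genes were lower and 19.3% higher. The 6 were Ndufv3, Ndufa1, Ndufb7 and Ndufa13 of complex I and the assembly factors Ndufaf3 and Sdhaf4. Ndufv3 reached 370, 379 and 403 scaled CPM (0.71 ± 0.12, edgeR adjusted p = 2.15e-05). Sdhd, a membrane anchor of complex II, and Atp5g1 were lower, at -1.04 and -1.10. Of the mitochondrial members mt-Co3, mt-Nd5 and mt-Atp6 were higher, at 0.71, 0.62 and 0.45, and 0 were lower. Without scaling the tuft-like split was 6 higher and 35 lower, and the share over all genes in that setting is not given here. The tuft-like sums rest on 39, 20 and 42 cells of cKO 1, cKO 2 and WT. Their median was 9348 UMIs, 0.3 times that of the library, with a median of 9.15% mt- UMIs beside 4.304% in ISC-like cells. The part of this depth and mt- share in the tuft-like values was not tested.

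Within the 4 enterocyte-like clusters the nuclear subunits varied little. Their unscaled sum ran from 73643 to 84320 CPM over all clusters and libraries, and that of the mitochondrial members from 32763 to 41229 CPM. A cluster of 736 cells led by Ccl20, Edn2, Bmp3 and Krt19, which no marker list named, had nuclear subunits at 79040, 84650 and 83642 CPM, in cKO 2 and WT above each enterocyte-like cluster of the same library. Its assembly factors, at 633, 662 and 642 CPM, lay instead by the ISC-like sums of 636, 669 and 627 CPM and above the enterocyte-like range of 353 to 489 CPM. A second unnamed cluster of 146 cells, led by Gm42418 and other ribosomal RNA-like features, had 13061 to 23940 CPM of nuclear subunits and 56071 to 66391 CPM of mitochondrial members, above every enterocyte-like cluster. These 2 clusters were compared by their values only, with no test.

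The other genes of the pathway were listed by role and tested in the same fit, where 38.2% of all genes were higher and 40.1% lower. Of 16 tricarboxylic acid cycle enzymes, which supply the chain with NADH and succinate, 14 were higher in enterocyte-like than in ISC-like cells and 1 was lower, with Ogdh, Mdh2 and Dlst at log2 fold changes of 2.64, 2.59 and 2.18 and Suclg2 at -0.33. Cytochrome c (Cycs) rose by 1.87 ± 0.14 on the log2 scale and Gpd2, which feeds electrons from glycerol 3-phosphate, by 1.76. Dhodh, which feeds electrons from pyrimidine synthesis, had -2.995 ± 0.14, and among the 15 genes tested of mobile carriers and electron entry 8 were higher and 3 lower. Complex IV assembly factors were higher in 14 of 18 cases and lower in 2, with Coa7 at 1.67 and Cox18 at -1.12. Complex I assembly factors without an Ndufaf symbol were split, 3 higher and 4 lower of 7, with Tmem126b at 0.82 and Nubpl at -1.22. Those of complex III were 2 higher and 2 lower of 6, and those of the ATP synthase 3 higher and 1 lower of 4.

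Genes that copy, transcribe and stabilise mitochondrial DNA and RNA ran against the mitochondrial transcripts. Of 18 tested, 14 were lower in enterocyte-like than in ISC-like cells and 1 (Polg2, 1.05) was higher. Tfam, which packages mitochondrial DNA and starts its transcription, had a log2 fold change of -1.75 ± 0.08, Elac2 -1.45 and the single-strand binding protein Ssbp1 -1.38. Of 10 regulators of mitochondrial gene programmes tested, 5 were higher, led by Ppargc1a (3.39) and Esrra (1.76), and 3 were lower, namely Myc (-6.30), Pprc1 (-3.69) and Nrf1 (-0.73). In glycolysis 12 of 17 genes were higher and 3 lower, with Slc16a3 at 4.42 and Hk2 at -5.98. Of the adenine nucleotide and phosphate carriers and related genes 6 of 7 were higher, among them Ucp2 at 1.47 and Slc25a5 at 1.44, while Slc25a4 was lower at -1.86. The 2 mitochondrial ribosomal RNAs were higher, at 0.79 and 0.69. These counts too move with the scaling. Without it, 23.8% of all genes tested were higher and 54.4% lower. In that setting 7 tricarboxylic acid cycle enzymes were higher and 3 lower. Of the mobile carriers and electron entry genes 4 were higher and 7 lower, and of the complex IV assembly factors 9 higher and 5 lower. Of the mitochondrial DNA and RNA genes 1 was then higher and 17 lower, of the regulators 2 higher and 5 lower, and of the glycolysis genes 10 higher and 5 lower. The carriers had 4 higher and 1 lower. The other complex I assembly factors had 1 higher and 5 lower, those of complex III 0 and 4, those of the ATP synthase 0 and 2, and neither ribosomal RNA was called. Relative to the median of all genes, the median of the mitochondrial DNA and RNA genes was -0.77 with TMM and -0.77 without scaling, and that of the tricarboxylic acid cycle enzymes 0.86 and 0.86. Such differences are bound to stay under a change of scaling and are no check on it.

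The second question was whether loss of Arid3a changed these genes within a class. The cKO and WT libraries were compared by the same edgeR test, in enterocyte-like cells (838, 606 and 700 cells, 12436 genes tested) and in ISC- and TA-like cells together (674, 479 and 611 cells, 14273 genes tested). With 2 libraries against 1, the fit has 1 residual degree of freedom and the WT library is assumed to vary as the cKO libraries do. In each comparison 105 members were tested.

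No nuclear member was called by edgeR in either comparison, 0 of 92 in enterocyte-like cells (3 at an unadjusted p under 0.05) and 0 of 92 in ISC- and TA-like cells (2 at an unadjusted p under 0.05). DESeq2 also called 0 in each. The background was low too: 0.249% of all genes were higher and 0.458% lower in cKO enterocyte-like cells, and 0.231% higher and 0.441% lower in cKO ISC- and TA-like cells. Over all genes, 1437 of 12436 in enterocyte-like and 1027 of 14273 in ISC- and TA-like cells had an unadjusted edgeR p under 0.05. Sums were simulated with this layout at a set dispersion, the spread between libraries, of 0.02. In enterocyte-like cells the test then recovered 52.2% of genes changed 2-fold and 10.4% of genes changed 1.5-fold. At that setting small changes would mostly be missed, and the spread of these members may differ from it. By a rule of size, a log2 ratio of CPM plus 5 of at least 0.5 in 1 direction in both cKO libraries, 0 nuclear members passed in either comparison, and 0.338%, 0.587%, 0.175% and 0.336% of all genes passed (higher and lower in enterocyte-like, then in ISC- and TA-like cells). The median over nuclear members of the mean log2 ratio was 0.040 in enterocyte-like and 0.050 in ISC- and TA-like cells, beside -0.0026 and -0.0054 for all genes. From cKO 2 alone these were 0.053 and 0.10 and from cKO 1 alone 0.018 and 0.0076. Of the nuclear members 46 of 92 were higher than WT in both cKO libraries in each comparison (50%, beside 35.2% and 32.4% of all genes tested), while 20 and 10 were lower in both.

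By the log2 ratio of CPM plus 5, Atp5k, the e subunit of the ATP synthase, was the nuclear member lowest in both cKO libraries in each comparison. By edgeR's log2 fold change Cox6a2 was lower still (-0.67 ± 0.39 beside -0.40 ± 0.17 for Atp5k in enterocyte-like cells, and -1.67 ± 0.84 beside -0.40 in ISC- and TA-like cells), on at most 43 UMIs in any library and without being called. Its counts were lowest in the second comparison, at 0.136, 0 and 0.0796 scaled CPM in ISC-like cells of cKO 1, cKO 2 and WT. In TA-like cells it had 0.152, 0.178 and 0.647 scaled CPM, so its rank there rests on values near the floor. Atp5k had 856 and 1008 CPM in cKO 1 and cKO 2 and 1240 CPM in WT enterocyte-like cells, and 545, 726 and 848 CPM in ISC- and TA-like cells. The WT library was above both, the 2 cKO libraries also differed from each other, and the edgeR adjusted p for Atp5k was 0.413 and 0.468. Ndufa2, an accessory complex I subunit, came next in enterocyte-like cells with 584, 608 and 663 CPM. Sdhaf2 came next in ISC- and TA-like cells with 26.4, 29.0 and 31.7 CPM. Uqcrc1, Cox6a2, Ndufv1 and Atp5b in the first comparison and Cox6a2, Ndufa2, Ndufaf5 and Cox6b2 in the second completed the 6 that were lowest, none of them called. In the other direction Atp5g2 (25.3, 25.2 and 20.8 CPM), Ndufb11 (589, 598 and 508 CPM), Ndufb4, Sdhaf3, Ndufaf7 and Ndufaf6 headed enterocyte-like cells. Sdhaf1 (80.4, 81.7 and 67.0 CPM), Sdhb (441, 469 and 394 CPM), Sdhaf3, Atp5g2 and Ndufb11 were among the highest in ISC- and TA-like cells, again with none called.

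**Figure D4:**
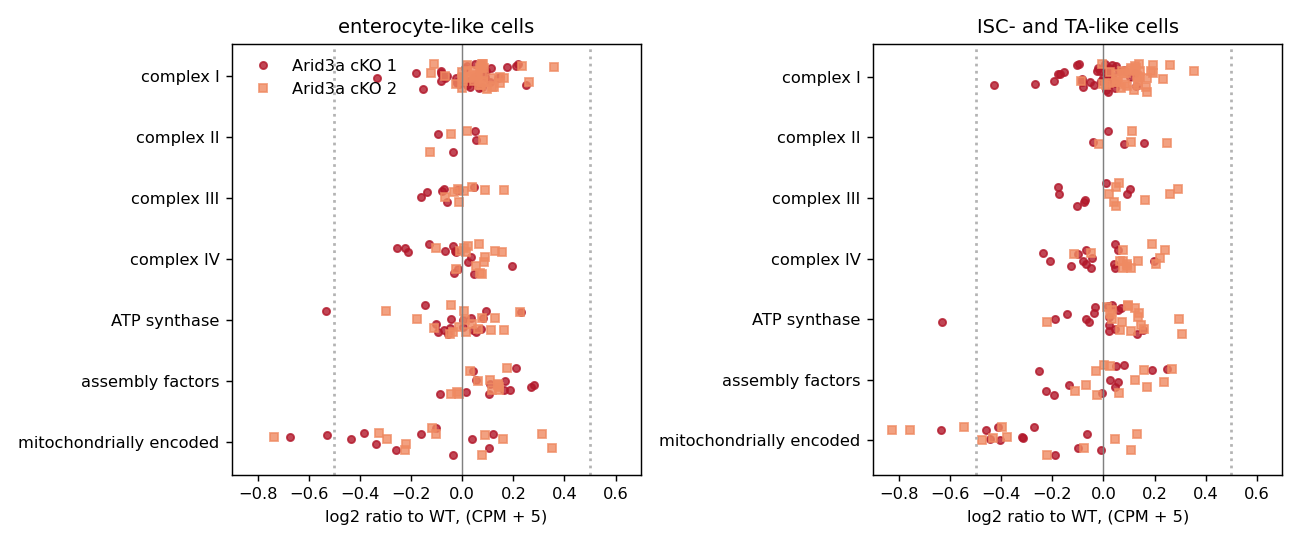
Log2 ratio of each cKO library to WT (x axes, CPM plus 5) for the members tested in enterocyte-like cells and in ISC- and TA-like cells, in rows by complex, with circles for cKO 1 and squares for cKO 2. Dotted lines mark 0.5 in each direction. mt-Nd3, at -4.52 and -4.34 and at -4.46 and -4.15, lies off the axes. The nuclear members gather around 0 and the mitochondrial members lie mostly to the left.

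The mitochondrial members were lower on balance in the cKO libraries. Of 13, 8 were lower than WT in both cKO libraries in enterocyte-like cells (61.5%, beside 38.1% of all genes tested) and 10 in ISC- and TA-like cells (76.9%, beside 36.0%). The median of their mean log2 ratios was -0.22 and -0.35, and without cKO 1 the first of these was -0.12. Marker lists of other cell types also differed in the same sums, some lower and some higher in cKO. In enterocyte-like cells the goblet list summed to 272, 477 and 913 CPM in cKO 1, cKO 2 and WT (8 of 10 genes lower in both cKO libraries), the Paneth list to 314, 254 and 380 (7 of 10) and the enteroendocrine list to 55.4, 41.3 and 95.5 (11 of 14). There the ISC list was higher in cKO, at 28.1, 21.5 and 17.5 CPM (7 of 10 genes higher in both, 0 lower). So was the TA list, at 150, 124 and 114 (7 of 12 higher, 3 lower), and the tuft list had 59.2, 60.1 and 57.3. In ISC- and TA-like cells the Paneth list summed to 673, 792 and 1129 CPM (8 of 10 lower) and the goblet list to 743, 860 and 1079 (7 of 10). The enteroendocrine list had 159, 46.7 and 136 (7 of 14), with cKO 1 above WT. The enterocyte list had 4561, 5173 and 4900, and the tuft list 20.7, 15.9 and 16.5. The part of these cells in the genotype differences was not tested. As a share of all UMIs in kept cells the mitochondrial members made up 2.85%, 2.89% and 3.28% in cKO 1, cKO 2 and WT, with 95% Wilson intervals of 2.847% to 2.855%, 2.886% to 2.895% and 3.277% to 3.286% that cover counting error only. The nuclear members made up 6.45%, 6.77% and 6.295%. With 10% mt- UMIs as the limit the mitochondrial share was 2.56%, 2.56% and 2.87%, with 25% it was 3.34%, 3.74% and 4.16%, and with no limit 5.09%, 6.005% and 6.39%. By pooled UMIs WT stayed highest at each limit, and the cKO libraries parted as the limit was raised. As the mean of the cells' own shares cKO 2 lay above WT with the limit at 25% (5.28% beside 5.15%) and with no limit (10.03% beside 9.17%). The mitochondrial ribosomal RNAs mt-Rnr1 (6257, 4311 and 7970 CPM) and mt-Rnr2 (13903, 10403 and 16301 CPM) were also highest in WT, with cKO 2 lowest. RNA quality was not measured apart from these shares, and its part in the difference was not tested.

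By gene, mt-Atp8, a small membrane subunit of the ATP synthase, was called lower in both comparisons. It had 256, 246 and 412 CPM in cKO 1, cKO 2 and WT enterocyte-like cells (log2 fold change -0.71 ± 0.11, edgeR adjusted p = 0.0334) and 224, 205 and 350 CPM in ISC- and TA-like cells (-0.70 ± 0.13, edgeR adjusted p = 0.00655). The 2 cKO libraries lay close together and well below WT. mt-Nd6, the 1 protein-coding gene on the light strand, had 43.5, 32.5 and 61.6 CPM in ISC- and TA-like cells and was called lower there (-0.69 ± 0.16, edgeR adjusted p = 0.0343). With DESeq2 that call was lost (adjusted p = 0.202, in a range over the alternatives of 2.54e-04 to 0.202). In enterocyte-like cells it had 47.3, 49.6 and 63.3 CPM and was not called (-0.38 ± 0.10, edgeR adjusted p = 0.188), though it was called under 5 other settings. mt-Atp6, which shares a transcript with mt-Atp8, was not called: 1139, 1239 and 1108 CPM in enterocyte-like and 709, 721 and 760 CPM in ISC- and TA-like cells.

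The remaining mitochondrial members were not called in either comparison. Of all 13, the called ones included, 3 had an unadjusted edgeR p under 0.05 in enterocyte-like cells and 8 in ISC- and TA-like cells. Over all genes tested these counts were 1437 of 12436 and 1027 of 14273. mt-Co1, mt-Nd1, mt-Nd2, mt-Nd4 and mt-Nd5 were lower than WT in both cKO libraries in both comparisons, for example mt-Co1 with 1735, 1912 and 2348 CPM in enterocyte-like and 1403, 1337 and 1861 CPM in ISC- and TA-like cells. mt-Co2 and mt-Co3 were higher in both cKO libraries in enterocyte-like cells, at 141, 162 and 130 CPM and at 520, 618 and 483 CPM. mt-Cytb had 15394, 16693 and 15803 CPM in enterocyte-like cells, where WT lay between the cKO libraries. mt-Nd4l, with 9.54, 17.3 and 15.96 CPM there, was low in cKO 1 and level with WT in cKO 2.

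mt-Nd3 stood apart from every other member. In enterocyte-like cells it had 11.3 and 13.6 CPM in cKO 1 and cKO 2 and 370 CPM in WT (log2 fold change -4.89 ± 0.13, edgeR adjusted p = 2.93e-06). In ISC- and TA-like cells it had 6.10, 8.72 and 239 CPM (-5.01 ± 0.16, edgeR adjusted p = 8.66e-16). The 2 cKO libraries were alike in each class and far from WT. Over all kept cells it gave 589, 598 and 17355 UMIs.

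Gm28438, the nuclear copy whose sequence is given above, had the opposite pattern. Over all kept cells it gave 6703 and 4253 UMIs in cKO 1 and cKO 2 (94.5 and 73.1 CPM) and 4 UMIs in WT (0.0638 CPM, 95% Poisson interval 0.0174 to 0.163). Added together they had 138, 114 and 370 CPM in enterocyte-like cells and 83.7, 67.2 and 239 CPM in ISC- and TA-like cells. The sum was still lower in cKO, with log2 fold changes of -1.55 (edgeR adjusted p = 0.00195) and -1.66 (edgeR adjusted p = 3.39e-08), a test chosen after the values were seen. Beyond the differing base, reads from the 2 genes cannot be told apart by sequence, and how the counting treated such reads was not tested. Whether the genotype or another difference between the libraries goes with it cannot be told apart with 1 WT library.

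**Figure D5:**
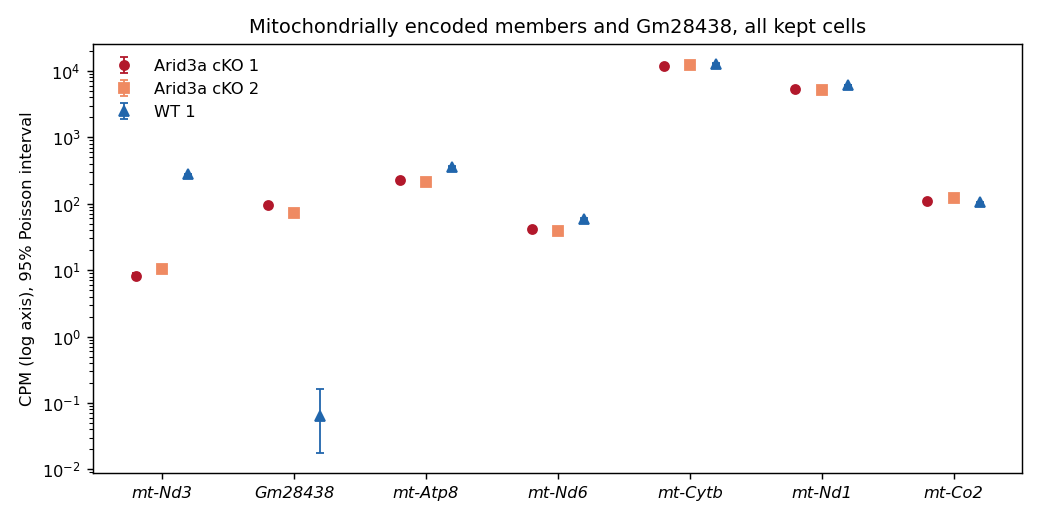
Level (y axis, log scale, CPM) of 6 mitochondrially encoded members and of the nuclear gene Gm28438 over all kept cells, with 1 point for each library and bars for 95% Poisson intervals. mt-Nd3 is at 8.30 and 10.3 CPM in the cKO libraries and 277 CPM in WT, Gm28438 is at 94.5, 73.1 and 0.0638 CPM, and the other members differ far less.

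The other mitochondrial members did not share this pattern. Copies of at least 95% identity over at least 100 bases were also annotated for mt-Atp6, mt-Co1, mt-Co2, mt-Co3, mt-Nd2, mt-Nd4, mt-Nd4l and mt-Nd5, and none of these copies exceeded 1.28 CPM over all kept cells of any library. mt-Nd1, mt-Cytb, mt-Nd6 and mt-Atp8 had no such copy, so no copy stands beside the lower counts of mt-Atp8 and mt-Nd6. For the nuclear members a stricter rule was used. By it 3 (Sdhaf1, Ndufs3 and Ndufb11) have a copy over at least 50% of their transcript, and those copies held at most 1.08% of the member's UMIs. More nuclear members have copies by the rule of 95% identity over at least 100 bases, such as Cox6c with 5 and Atp5k and Atp5g2 with 1 each. The UMIs of those copies are not given here.

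Of the pathway lists, 2 genes other than members were called between the genotypes. Slc25a4, the adenine nucleotide carrier best known from muscle, had 9.92, 7.83 and 3.03 CPM in enterocyte-like cells (log2 fold change 1.56 ± 0.21, edgeR adjusted p = 0.0220) and 32.1, 30.4 and 19.7 CPM in ISC- and TA-like cells (0.68 ± 0.15, edgeR adjusted p = 0.0284). Sco2, which delivers copper to complex IV, had 103, 98.0 and 44.2 CPM in enterocyte-like cells (1.19 ± 0.10, edgeR adjusted p = 0.0019) and 59.6, 61.3 and 52.3 CPM in ISC- and TA-like cells, where it was not called. The lists of other cell types given above moved in these same sums.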

How the data were processed

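Droplet 3′ RNA-seq of sorted intestinal epithelium was taken from 3 deposited UMI count matrices (2 Arid3a cKO libraries, 1 WT library), which the authors made with Cell Ranger (version 5.0.0 per the file headers). The submitters' processing notes name the human builds GRCh38 and hg19. The mouse build is not given in the sources used here, and gene IDs were matched to GENCODE M21. Members and lists were chosen with earlier results of these data known.

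Cells with at least 1000 genes and at most 15% mt- UMIs were kept, integrated and clustered in Seurat 5.3.0 (R 4.3.3, 30 principal components, resolution 0.3) without the members, the pathway genes and the mt- genes, and named from markers. Scrublet (scanpy 1.11.5) marked 110 kept cells (1.97%), which stayed in. Counts were summed per library and class, and edgeR 4.0.16 (TMM, filterByExpr, quasi-likelihood, Benjamini-Hochberg over all genes tested) was used, with library as a term between classes and genotype alone within a class. DESeq2 1.42.0 was an alternative. Kept UMIs per library were 70922480, 58169310 and 62694008. Copies were found with BLAST 2.17.0 at 95% identity or more over at least 100 bases. The edgeR fits were tested on simulated data. Alternatives were other scalings, filters, cell limits, clusterings and left-out libraries.

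Genes were named by a rule: all mitochondrial members, paralog pairs, up to 6 nuclear members per direction with the largest change and up to 3 called genes per pathway list and direction. Sdhd in tuft-like cells, the unnamed clusters and the sum of mt-Nd3 and Gm28438 were chosen after their values were seen. The result of 1 gene that this rule names is not reported here.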

Additional observations from a re-analysis of the deposited data

Results flagged for a closer look

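The nuclear gene Gm28438, which is no member and entered the comparisons of members only where it was added to mt-Nd3, gave 94.5 CPM in cKO 1 and 73.1 CPM in cKO 2 over all kept cells, above its level in the WT library.

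The ratio of cKO to WT for mt-Atp6 went opposite ways in the cell groups, with a mean log2 ratio of 0.10 in enterocyte-like cells and -0.088 in ISC- and TA-like cells, and both cKO libraries had the same sign in each. The difference between the groups was not tested.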

How the results depend on the processing

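With 1 WT library, genotype values without 1 cKO library are values with no test, and the mitochondrial limit on cells bears on the mitochondrial members directly. No paired analysis was made, because no pairing of cKO with WT libraries is given in the sources used here. No tested call reversed, but as a mean of the cells' shares the mitochondrial share of cKO 2 lay above WT with a limit of 25% and with none. The calls of mt-Nd3 and mt-Atp8 were kept under every alternative run, with log2 fold changes of mt-Nd3 from -4.96 to -1.55 in enterocyte-like cells, the last with Gm28438 added. Atp5k was the 1 nuclear member called between genotypes, in ISC- and TA-like cells without scaling and in enterocyte-like cells without integration. The count of all genes called between genotypes moved from 88 to between 80 and 558 in enterocyte-like cells and from 96 to between 47 and 224 in ISC- and TA-like cells.

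Without scaling, 6 members were called in ISC- and TA-like cells (3 with TMM, the others being mt-Co1, mt-Nd2 and Atp5k), 37 nuclear members were higher in enterocyte-like cells and 35 lower in tuft-like cells. With library totals that leave out mt- UMIs these were 43 and 30. DESeq2 called 10 nuclear members higher in TA-like cells and a resolution of 0.8 gave 6. Between genotypes, the median log2 ratio of cKO to WT over nuclear members in enterocyte-like cells was 0.12 with 25% mt- UMIs and 500 genes. It was 0.040 in the main setting. The mitochondrial share of cKO minus WT was -0.411 percentage points, and -0.313, -0.621 and -0.844 with limits of 10%, 25% and none, and -0.307 as a mean of the cells' shares. Leaving out 1 library at a time gave -0.430 to -0.391 for that share. The median log2 ratio of cKO to WT in enterocyte-like cells was then -0.26 to -0.12 (without cKO 1) for mitochondrial members and 0.02 to 0.05 for nuclear members. In ISC- and TA-like cells the nuclear median was 0.0076 to 0.10. Against ISC-like cells, 1 (without WT) to 2 nuclear members were higher in TA-like cells. In goblet-like cells 27 (without cKO 1) to 49 were lower, in Paneth-like cells 53 to 69 and in tuft-like cells 43 to 55. The cause was not tested.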
